A study of Mus musculus with 7 samples.

Results

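The 9 transcription factors that specify and maintain the retinal pigment epithelium (RPE) and its neighbours in the optic cup, Mitf, Tfec, Otx2, Sox9, Lhx2, Pax6, Six3, Vax2 and Foxd1, were examined in RPE from aged WT and LC3b-/- mice. They were taken by name from the 52740 genes of the count table, and 8 of the 9 passed the filter on low counts that left 16990 genes for testing. Tfec, with 4 to 7 counts per library, did not pass. The WT group holds 4 C57BL6/J mice (females F1, F2 and F3 and male M1), and the LC3b-/- group holds 3 mice (females F1 and F3 and male M) of the strain B6;129P2-Map1Lc3btm1Mrab/J, which lack LC3b (Map1lc3b) from the germ line in all tissues. All 7 mice are labelled 24 months old, no treatment is given, and each mouse gave 1 library. The strain background differs between the groups by name, and the number within the mouse names, whose meaning is not given, is never shared between genotypes, so neither can be told apart from genotype.

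The RPE is a single layer of pigmented cells behind the retina that recycles the chromophore of the visual pigments and engulfs shed photoreceptor tips. MITF, a basic helix-loop-helix factor that binds E-box motifs, and the homeodomain factor OTX2 together switch on pigment genes and set RPE identity in the optic cup. In the mature RPE, SOX9 acts with OTX2 and LHX2 on genes of the visual cycle. PAX6 is needed throughout the eye and works with MITF in the RPE, whereas SIX3, VAX2 and FOXD1 are best known for the eye field, the ventral retina and the temporal retina.

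Counts assigned to genes summed to 24495952 to 35616134 per library. Levels are given as CPM, which are counts brought to a common library total after TMM scaling, and fold changes are of LC3b-/- over WT from edgeR's quasi-likelihood test, with p-values adjusted over all 16990 genes by the Benjamini-Hochberg method. A gene counts as called where the adjusted p is under 0.05 and the level differs by 1.5 times or more. Values of single libraries are listed in the order F1, F2, F3, M1 for WT and F1, F3, M for LC3b-/-. With 4 against 3 libraries an exact two-sided permutation test of a single gene cannot give a p below 0.0286. Map1lc3b itself had 2778 to 4444 counts in the WT libraries and 168 to 332 in the LC3b-/- libraries, and its log2 fold change was -3.98 (SE 0.15, adjusted p = 1.86e-04). Among 19 RPE markers the summed level was 51774 to 78678 CPM in WT and 25686 to 49866 CPM in LC3b-/-, without overlap, with a ratio of group means of 0.557. Best1, a chloride channel often used to define the RPE, was at 0.861 to 1.71 CPM in the 7 libraries, whereas Rpe65, the retinoid isomerase of the visual cycle, was at 878 to 3968 CPM. In bulk RNA, a smaller share of RPE cells and less RNA of a gene per RPE cell cannot be told apart.

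None of the 8 factors tested was called changed, where 40 of all 16990 genes (0.235%) were. The fold changes of 6 factors were below 0 and those of 2 were above 0, with a median log2 fold change of -0.36 against 0.01 for all genes tested. At an unadjusted p under 0.05, 3 of the 8 were lower in LC3b-/- (Otx2, Lhx2 and Six3), where 10.6% of all genes were lower at that threshold, and 0 were higher, where 13.5% of all genes were. Otx2 and Lhx2 were lower in every LC3b-/- library than in any WT library, which held for 10.3% of all genes, and no factor was higher without overlap, which held for 12% of all genes. DESeq2 called 1 of the factors, Otx2, where it called 9.85% of the genes it adjusted, and limma's voom called 0.

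**Figure D1:**
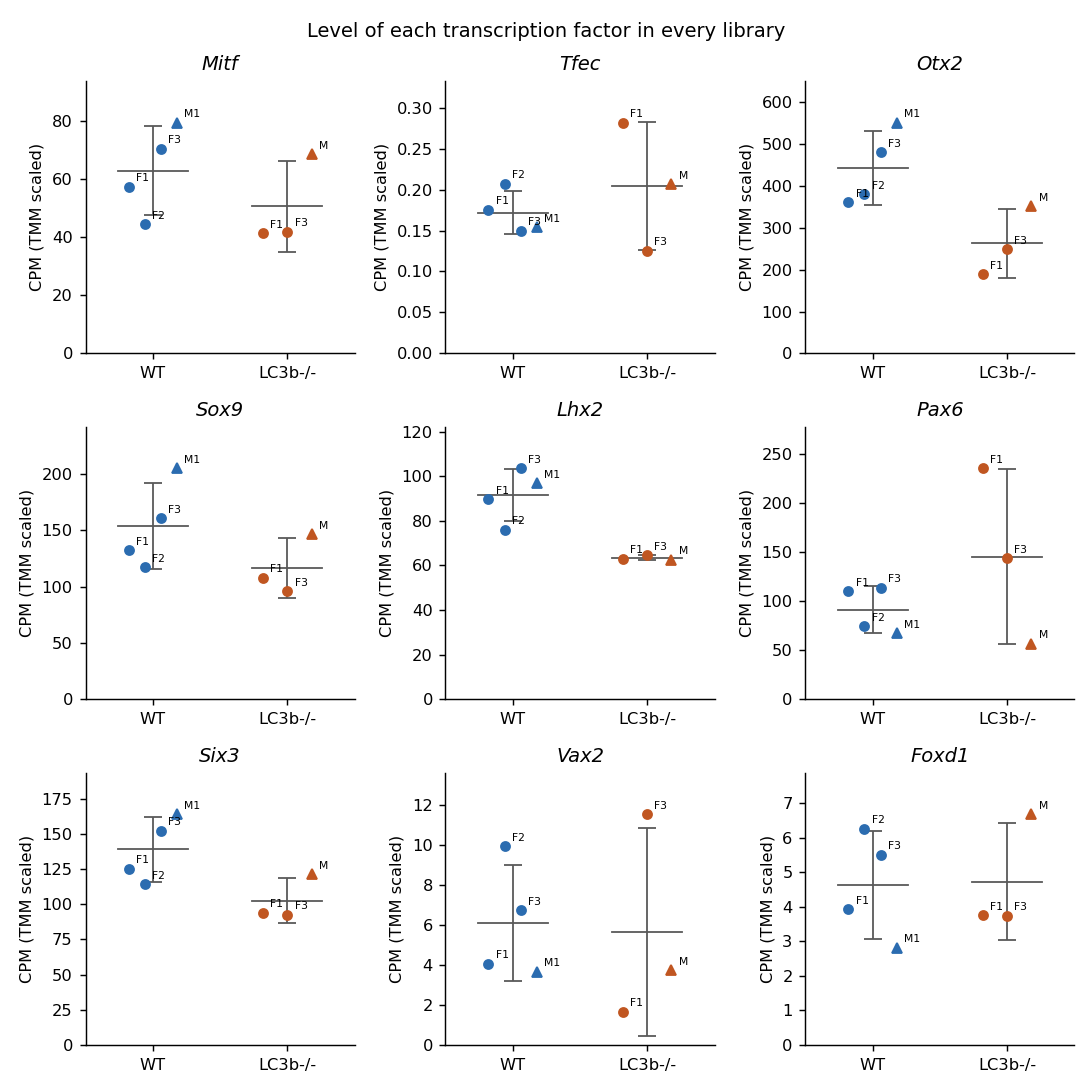
Level of each of the 9 factors in CPM after TMM scaling, 1 panel per gene with its own axis from 0. Circles are females, triangles males, labels are the mouse names, and lines with bars are the group mean and SD. The LC3b-/- libraries lie below all WT libraries for Otx2 and Lhx2, and the groups overlap for the other 7 genes.

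Mitf (chr6:97783950-97998323, plus strand, GRCm39) encodes the factor that drives melanin synthesis and RPE specification. Mitf was at 57.3, 44.5, 70.3 and 79.3 CPM in the WT libraries and at 41.3, 41.8 and 68.5 CPM in the LC3b-/- libraries. Both LC3b-/- females lay below the 4 WT libraries, and the LC3b-/- male lay within their range. The group means were 62.8 ± 15.2 CPM (SD, n = 4) and 50.5 ± 15.5 CPM (SD, n = 3), with a log2 fold change of -0.31 (SE 0.26, 95% interval -0.92 to 0.29, adjusted p = 0.479), so the difference was within the spread between mice. The interval includes no change and, at its lower end, a difference past the fold threshold.

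Tfec (chr6:16833372-16898440, minus strand), which encodes a close relative of MITF known from macrophages and the RPE, was near the limit of detection. It had 6, 5, 4 and 4 counts in the WT libraries and 7, 5 and 7 counts in the LC3b-/- libraries, or 38 counts in all. That is 0.125 to 0.282 CPM, and the groups overlap. Without the filter on low counts its log2 fold change was 0.22 (SE 0.77, 95% interval -1.50 to 1.96, adjusted p = 0.896), so a difference of the size of the fold threshold was not detectable at this depth. The other genes of the MiT-TFE family, Tfeb and Tfe3, which encode master regulators of lysosome genes, were better covered. Tfeb was at 21.1 to 23.9 CPM in WT and 22.2 to 25.5 CPM in LC3b-/-, and Tfe3 at 25.8 to 31.4 CPM and 29.2 to 35.1 CPM. Their log2 fold changes were 0.10 (SE 0.11, adjusted p = 0.621) and 0.13 (SE 0.13, adjusted p = 0.555).

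Otx2 (chr14:48894099-48911276, minus strand) was the most abundant of the 9 factors. It was at 361, 380, 480 and 552 CPM in the WT libraries and at 189, 250 and 352 CPM in the LC3b-/- libraries. The highest LC3b-/- library, that of the male, lay just under the lowest WT library. The log2 fold change was -0.75 (SE 0.26, 95% interval -1.35 to -0.15), which is 0.594 of the WT level. The unadjusted p of 0.0204 did not hold after adjustment (0.148), and the exact permutation test gave the smallest p the design allows, 0.0286. In DESeq2 the log2 fold change of -0.78 had an adjusted p of 0.0442. Without LC3b-/- M the edgeR log2 fold change was -1.02, and without LC3b-/- F1 it was -0.56, with adjusted p-values over the 7 left-out libraries of 0.0692 to 0.383.

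Sox9 (chr11:112673009-112678586, plus strand), which encodes an HMG-box factor also found in Müller glia, was at 133, 117, 161 and 205 CPM in the WT libraries. The LC3b-/- libraries had 108, 95.9 and 147 CPM. As for Mitf, both LC3b-/- females lay below all WT libraries and the male lay among them. The fold change was -0.40 on the log2 scale (SE 0.23, 95% interval -0.94 to 0.15, adjusted p = 0.334). The summed level of 12 Müller glia markers was 4211 to 4695 CPM in WT and 4003 to 4761 CPM in LC3b-/-. That sum was led by Glul (1897 to 2063 CPM in WT, 1730 to 2180 in LC3b-/-) and Car14 (898 to 1440 against 401 to 902 CPM). At an unadjusted p under 0.05 in edgeR, Car14 was lower (log2 fold change -0.88), and Vim (288 to 721 against 707 to 881 CPM) and Hes1 were higher. The sum thus joins markers that moved in opposite directions. A less abundant marker, Aqp4, varied more (13.4 to 42.3 CPM in WT, 12.3 to 115 in LC3b-/-). Of the 11 markers tested, 6 had fold changes above 0 and 5 below. The part of these markers in the Sox9 level was not tested.

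Lhx2 (chr2:38229293-38259759, plus strand), a LIM-homeodomain gene needed for the optic vesicle, was at 89.7, 76.0, 104 and 96.8 CPM in the WT libraries. In the LC3b-/- libraries it was at 63.0, 64.7 and 62.6 CPM. The 3 LC3b-/- values were close together, with a coefficient of variation of 1.75% against 12.9% in WT, and all lay below the lowest WT value. The log2 fold change was -0.53 (SE 0.13, 95% interval -0.82 to -0.24), the smallest error among the 8 factors. Its unadjusted p of 0.00348 became 0.0960 after adjustment, and the exact permutation p was 0.0571. DESeq2 gave an adjusted p of 0.0110 with a log2 fold change of -0.55, short of the fold threshold of 0.585 on the log2 scale. Leaving out any 1 library moved the fold change only between -0.61 and -0.48.

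Six3 (chr17:85920640-85936730, plus strand), a homeobox gene of the eye field, was at 125, 114, 152 and 164 CPM in the WT libraries and at 94.0, 92.6 and 121 CPM in the LC3b-/- libraries. Only the LC3b-/- male overlapped WT, lying above WT F2. In edgeR it had a log2 fold change of -0.44 (SE 0.17, 95% interval -0.84 to -0.04, adjusted p = 0.182) and the exact permutation p was 0.114.

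Pax6 (chr2:105499234-105530952, plus strand) was the most variable of the well-covered factors and had the highest fold change. It was at 110, 74.2, 114 and 67.0 CPM in the WT libraries and at 235, 144 and 56.6 CPM in the LC3b-/- libraries. Both LC3b-/- females lay above all WT libraries, while the LC3b-/- male had the lowest value of the 7. Its log2 fold change was 0.67 (SE 0.44, 95% interval -0.35 to 1.69, adjusted p = 0.380), and it was 0.13 without LC3b-/- F1 and 1.05 without LC3b-/- M.

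Pax6 is also expressed in the corneal and conjunctival epithelium and in amacrine and ganglion cells of the retina. The 14 ocular surface epithelium markers, led by the keratin genes Krt5 and Krt15, summed to 926, 652, 31.1 and 2531 CPM in the WT libraries. In the LC3b-/- libraries they summed to 25905, 7229 and 3538 CPM, so the groups did not overlap, and 10 of the 14 were higher at an unadjusted p under 0.05. The libraries with the most of these markers, LC3b-/- F1 and F3, were also those with the most Pax6, but WT F3, with the least of them, had the third highest Pax6 level and LC3b-/- M, with the third highest sum, had the lowest. Amacrine and ganglion cell markers summed to 439 to 542 CPM in WT and 285 to 403 CPM in LC3b-/-, but most of that sum was Slc6a9 (335 to 503 against 209 to 271 CPM), a glycine transporter. Without Slc6a9, a sum added after its values were seen, they summed to 26.4 to 159 CPM in WT and 76.3 to 177 CPM in LC3b-/-, with overlap. Of the 9 markers of the full list that were tested, 6 had fold changes above 0, and Slc6a9 was among those below 0. The part of either marker list in the Pax6 level was not tested.

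Vax2 (chr6:83688215-83715295, plus strand), which patterns the ventral retina, had 41 to 460 counts per library. It was at 4.07, 9.94, 6.74 and 3.65 CPM in the WT libraries and at 1.65, 11.5 and 3.72 CPM in the LC3b-/- libraries. The LC3b-/- group held both the highest and the lowest value of the 7. The log2 fold change was -0.11 (SE 0.66, 95% interval -1.64 to 1.42, adjusted p = 0.937), an interval that spans a change of more than the fold threshold in both directions. It was 0.02 with limma's voom and 0.01 without TMM scaling, and it ranged from -1.22 without LC3b-/- F3 to 0.32 without LC3b-/- F1.

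Photoreceptor markers moved with Vax2 from library to library. The 16 markers summed to 2472, 22010, 9443 and 276 CPM in the WT libraries and to 99.1, 7505 and 3249 CPM in the LC3b-/- libraries. The libraries with the 3 highest sums, WT F2, WT F3 and LC3b-/- F3, were the 3 highest in Vax2, and LC3b-/- F1 was lowest in both. The part of photoreceptor RNA in the Vax2 level was not tested.

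**Figure D2:**
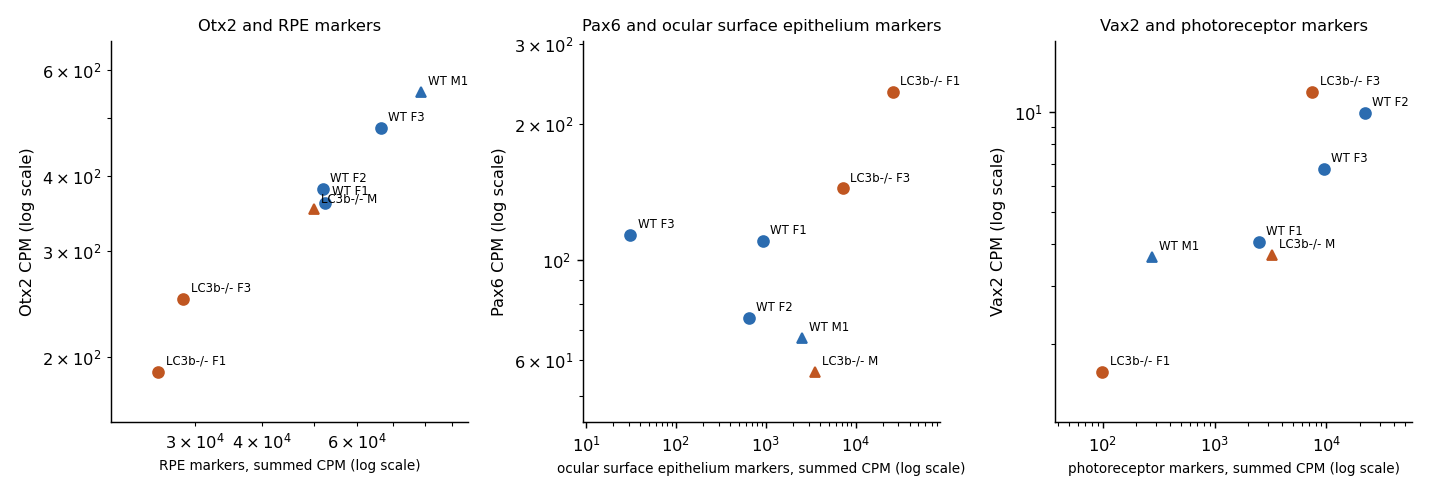
Level of a factor in CPM against the summed CPM of a marker list in the same library, both on log axes, for Otx2 and 19 RPE markers (left), Pax6 and 14 ocular surface epithelium markers (middle) and Vax2 and 16 photoreceptor markers (right). Blue is WT, orange LC3b-/-, circles are females and triangles males. Otx2 is high where the RPE markers are high in both genotypes, Pax6 is highest in the libraries LC3b-/- F1 and F3 that hold the most ocular surface markers, and Vax2 is lowest in LC3b-/- F1, which holds the fewest photoreceptor markers.

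Foxd1 (chr13:98490750-98495813, plus strand), a forkhead gene of the temporal retina, had 73 to 226 counts per library. It was at 3.92, 6.26, 5.50 and 2.81 CPM in the WT libraries and at 3.75, 3.74 and 6.68 CPM in the LC3b-/- libraries. The 2 males were the lowest and the highest of the 7 libraries. The log2 fold change was 0.03 (SE 0.36, 95% interval -0.80 to 0.87, adjusted p = 0.968), with a direction that turned to -0.11 under limma's voom and to -0.48 in females alone.

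Leaving out single libraries changed these counts. Without LC3b-/- M, 6 of the 8 factors did not overlap between the groups (5 lower, where 20.6% of all genes were lower without overlap, and Pax6 higher, where 18.6% were), and at an unadjusted p under 0.05 the same 5 (Mitf, Otx2, Sox9, Lhx2 and Six3) were lower, where 13.1% of all genes were, and Pax6 was higher, where again 13.1% were. In females alone, 3 WT against 2 LC3b-/-, 7 of the 8 did not overlap (6 lower, where 22.4% of all genes were, and Pax6 higher, where 20.1% were). Without LC3b-/- F3, 4 did not overlap (Otx2, Lhx2, Six3 and Vax2, all lower), where 30.6% of all genes did not in either direction. TMM scaling was computed anew there, which placed Six3 in LC3b-/- M at 115 CPM, just under WT F2 at 117 CPM, and Vax2 in LC3b-/- M at 3.53 CPM, just under WT M1 at 3.65 CPM. Without LC3b-/- F1, Lhx2 was the 1 factor lower at an unadjusted p under 0.05, where 5.74% of all genes were. No factor was called in any of these fits, and the interaction of sex and genotype passed the test for none of the 8 (adjusted p of 0.998 or more, with 1 male per genotype).

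Relative to the RPE markers rather than to all genes, several factors stood higher in LC3b-/-, as most genes did. On this scale 4.68% of all genes had fold changes below 0, and 41% were higher without overlap, against 4 of the 8 factors. Otx2 had 69.0, 73.4, 72.3 and 70.2 counts per 10000 counts of the 19 RPE markers in the WT libraries and 73.6, 87.3 and 70.6 in the LC3b-/- libraries. The groups overlapped, and the WT values spread by only 2.01 (SD) around 71.2. Mitf had 10.9, 8.59, 10.6 and 10.1 counts per 10000 RPE marker counts in the WT libraries and 16.1, 14.6 and 13.7 in the LC3b-/- libraries, higher without overlap. Sox9 had 22.6 to 26.1 in WT and 29.4 to 42.0 in LC3b-/-, and Six3 had 20.9 to 24.0 and 24.3 to 36.6, both also higher without overlap. Foxd1 (0.357 to 1.21 against 1.31 to 1.46) did not overlap either, whereas Lhx2 (12.3 to 17.1 against 12.6 to 24.5), Pax6 and Vax2 did.

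With libraries scaled to the summed RPE marker counts, the median log2 fold change of all genes moved from 0.01 to 0.92, and the fold changes of all 8 factors were above 0 with a median of 0.53, which is below that of all genes. Otx2 was at 0.11 (95% interval -0.34 to 0.57), Lhx2 at 0.41, Six3 at 0.47, Sox9 at 0.51 and Mitf at 0.56 (95% interval 0.07 to 1.04). Pax6, at 1.74 (adjusted p = 0.0496), was the 1 factor called on this scale, where 33.3% of all genes were called. Higher without overlap were 4 of the 8 factors, where 41% of all genes were. Scaling to the geometric mean of the markers, in which the abundant Ptgds and Ttr weigh no more than the others, gave a median of all genes of 0.55, with Mitf at 0.19, Sox9 at 0.14, Six3 at 0.09 and Lhx2 at 0.03, Otx2 at -0.25 and none called. The marker Cdh1 weighs as much as any other there. It was higher in LC3b-/- (26.5 to 225 CPM) than in WT (0.150 to 23.1 CPM), whereas 16 of the 19 markers had fold changes below 0 with TMM. Cdh1 ranked the 7 libraries in the same order as the summed ocular surface epithelium markers did, lowest in WT F3 and highest in LC3b-/- F1. The part of Cdh1 in the geometric mean result was not tested. Both scalings raise the fold changes of all genes, so the sign of Mitf, Sox9, Lhx2, Six3 and Vax2 turns under both and that of Otx2 under the first. Against the median of all genes, 7 of the 8 factors, all but Pax6, lay below it under each of these scalings, and 6 of the 8 did under TMM scaling.

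**Figure D3:**
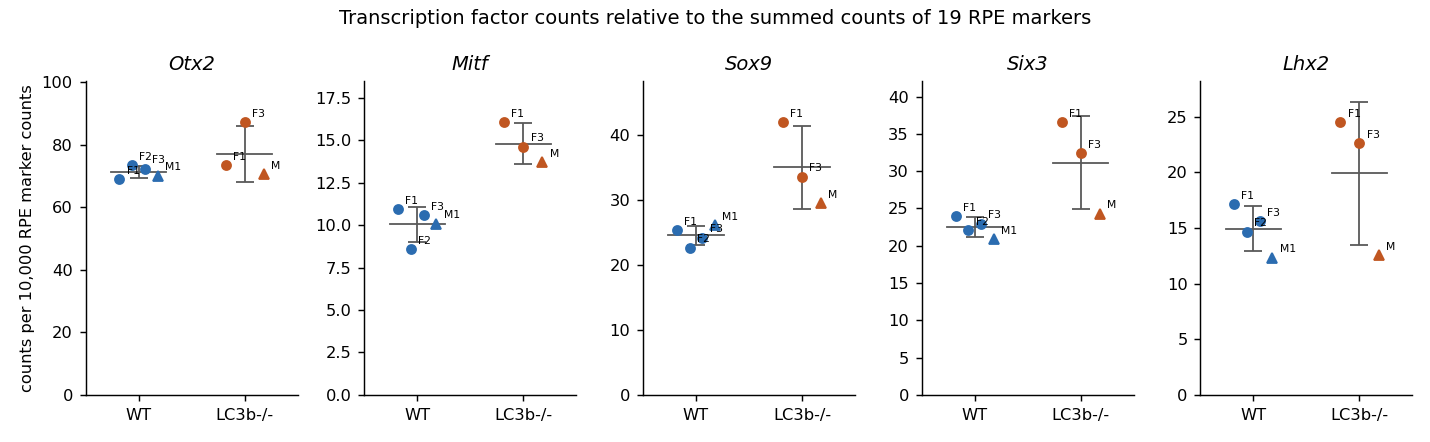
Counts of 5 factors per 10000 summed counts of 19 RPE markers in the same library, with axes from 0, by genotype. Circles are females, triangles males, and lines with bars are the group mean and SD. Otx2 stays at 69.0 to 73.4 in WT and 70.6 to 87.3 in LC3b-/-, while Mitf, Sox9 and Six3 are higher in every LC3b-/- library than in any WT library. On this scale the same holds for 41% of all genes tested.

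**Figure D4:**
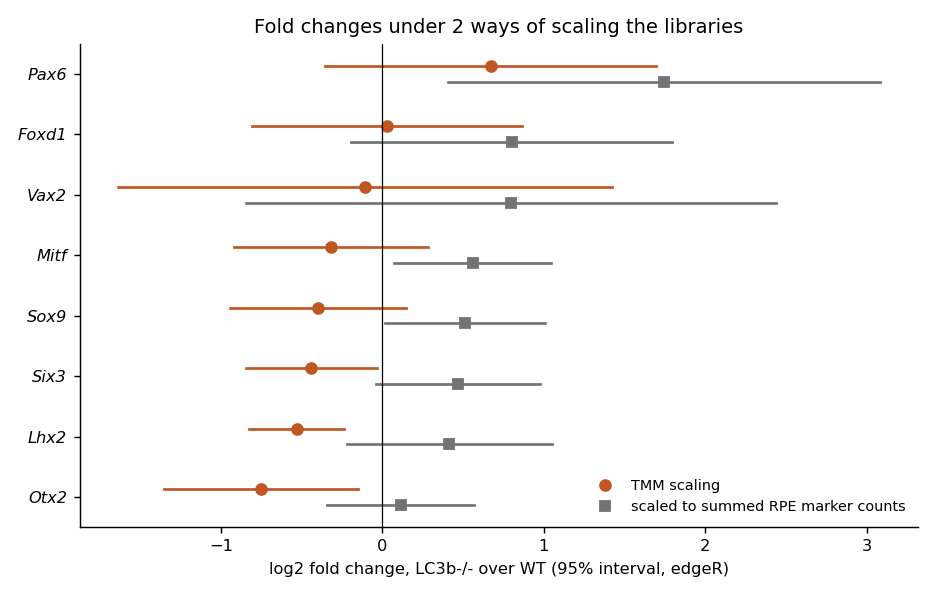
Log2 fold change of LC3b-/- over WT with its 95% interval from edgeR for the 8 factors tested. Circles use TMM scaling and squares use scaling to the summed counts of 19 RPE markers, under which the median of all genes is 0.92. With TMM 6 of the 8 values are below 0, and with RPE marker scaling all 8 are above 0 but 7 of them, all but Pax6, lie below the median of all genes.

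Per kilobase of the canonical transcript, which allows levels to be compared between genes, Otx2 stood first in WT at 110 to 169 CPM per kb. Six3 (31.1 to 44.6), Sox9 (28.1 to 49.1) and Lhx2 (26.6 to 36.3 CPM per kb) followed, and these 3 did not differ beyond their spread. Pax6 (11.5 to 19.5) and Mitf (8.96 to 16.0 CPM per kb) came next and overlapped each other. Vax2 (2.87 to 7.81), Foxd1 (0.554 to 1.24) and Tfec (0.0838 to 0.116 CPM per kb) stood last, each below the one before without overlap. In LC3b-/-, Otx2 (57.7 to 107 CPM per kb) was again first and Foxd1 and Tfec last, while Pax6, at 9.73 to 40.4 CPM per kb, overlapped Sox9, Six3, Lhx2 and Mitf. With the length of all exons merged in place of the canonical transcript, Six3 and Sox9 change places in the WT order, as do Pax6 and Mitf.

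Mitf, Otx2, Sox9, Lhx2 and Six3 varied together over the 7 libraries, with Pearson's r of log2 CPM from 0.64 to 0.96 between pairs of them, and Pax6 ran against them (-0.75 to -0.24). The r was 0.96 between Sox9 and Six3, 0.95 between Mitf and Sox9 and 0.94 between Otx2 and Six3, and it was -0.75 between Otx2 and Pax6. These values describe 7 libraries that share their depth, their cell mixture and the difference between genotypes. Among protein coding genes with a mean of at least 10 CPM, the genes most like Otx2 were Plekhb2 (r = 0.999), Ncoa1 and Mcrip1, and those most like Mitf were Pitrm1 (r = 0.995), Lratd2 and Crim1. Sox9 was most like Trmt1l (r = 0.997), Mtpn and Spcs1, Six3 most like Wls (r = 0.998), Wwp1 and Atp1b1, and Lhx2 most like St7l (r = 0.980) and Lonrf2. For Pax6 they were Atp1b3 (r = 0.985), Otx1 and Pde1a, for Vax2 Zdhhc17 (r = 0.978), Ccdc136 and Slc1a2, and for Foxd1 Rab4a (r = 0.960), Opa3 and Efr3a. Each is the highest of 9751 or 9752 genes compared over 7 libraries. How high r would stand from that choice alone was not tested.

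Several of the factors share their locus with antisense or overlapping transcripts. Otx2os1, which runs antisense to Otx2, was at 17.7, 20.1, 25.0 and 28.3 CPM in the WT libraries and at 6.16, 15.2 and 15.7 CPM in the LC3b-/- libraries. It was lower without overlap, as Otx2 was, with a log2 fold change of -0.88 (SE 0.34, adjusted p = 0.179). Six3os1, at 104 to 145 CPM in WT and 71.7 to 117 CPM in LC3b-/-, had a log2 fold change of -0.42 (SE 0.20, adjusted p = 0.237), close to that of Six3. Vax2os, at 4.69 to 101 CPM in WT and 5.19 to 84.5 CPM in LC3b-/-, was highest in the same 3 libraries as Vax2. Pax6os1 (0.36 on the log2 scale), Elp4 at the Pax6 locus (0.04) and Gm49154 at the Otx2 locus (-0.68) were not called either. The library kit keeps the strand, but the strand setting of the counting is not given in the sources used here, so reads of a factor and its antisense partner may not be fully separated.

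The other regulators of these pathways gave no calls in edgeR. Of 14 MiT-TFE and co-acting regulators, all tested, 0 were called and 0 had an unadjusted p under 0.05, with a median log2 fold change of 0.12. Among the smallest p-values were those of Pias3 (-0.33, adjusted p = 0.249), a known MITF inhibitor, and Usf2 (-0.24, adjusted p = 0.253), another E-box factor. Of 32 other eye patterning factors, 29 were tested and 0 called, with 3 higher and 1 lower at an unadjusted p under 0.05 and a median of 0.35. Without WT F1, 10 of them were higher at that threshold, where 18% of all genes were. DESeq2 called 4 of the 32 (Sox4, Hes1 and Klf4 higher and Sox10 lower), beside the 9.85% it called of all genes. Sox4 (12.9 to 33.0 CPM in WT, 40.7 to 64.7 in LC3b-/-, log2 fold change 1.20, adjusted p = 0.112), Hes1 (also a Müller glia marker, 64.6 to 124 against 139 to 158 CPM, 0.74, adjusted p = 0.121) and Klf4 (41.5 to 134 against 160 to 208 CPM, 1.13, adjusted p = 0.128) did not overlap between the groups. The gene lower at that threshold was Sox10, a melanocyte and neural crest factor (116 to 195 against 59.6 to 122 CPM, -0.91, adjusted p = 0.139).

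The pigment genes that MITF and OTX2 act on were mostly below 0 in fold change, without a call. Of 19, all tested, 15 were below 0, where 48.8% of all genes were, 0 were called, 2 were higher and 2 lower at an unadjusted p under 0.05, and the median log2 fold change was -0.28. Gpnmb, a melanosome and lysosome glycoprotein, was at 447 to 717 CPM in WT and 752 to 919 CPM in LC3b-/-, without overlap (0.64, SE 0.20, adjusted p = 0.130). Mreg, a regulator of melanosome transport and phagosome maturation, was at 5.47 to 10.9 CPM and 9.16 to 19.9 CPM (0.95, SE 0.33, adjusted p = 0.151). Oca2, a melanosome ion transporter, was at 111 to 188 CPM and 62.3 to 125 CPM (-0.73, SE 0.28, adjusted p = 0.174). Tyr, tyrosinase itself, was at 137 to 219 CPM in WT and 123 to 194 CPM in LC3b-/- (-0.29, SE 0.22, adjusted p = 0.460). Gpr143, a melanosome receptor, was the other lower gene (-0.89, SE 0.34, adjusted p = 0.178). No gene of this list had an unadjusted p under 0.05 in the lower direction once LC3b-/- F1 or F3 was left out, and 6 had one without LC3b-/- M, where 13.1% of all genes did.

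The visual cycle and other RPE genes that SOX9, OTX2, LHX2 and MITF act on had the lowest median of the 4 lists, without a call after adjustment. Of 14, all tested, 0 were called by edgeR, but 10 were lower at an unadjusted p under 0.05 (10.6% of all genes), 6 were lower without overlap (10.3% of all genes), and the median log2 fold change was -0.89. DESeq2 called 6 of them, all lower, where it called 3.08% of all genes lower. Lrat, which esterifies retinol, was at 2073, 1858, 3323 and 2365 CPM in the WT libraries and at 432, 669 and 1305 CPM in the LC3b-/- libraries (log2 fold change -1.58, SE 0.42, adjusted p = 0.103). The groups of Lrat did not overlap. Rrh, peropsin, was at 194 to 290 CPM in WT and 56.9 to 147 CPM in LC3b-/- (-1.30, SE 0.33, adjusted p = 0.0990), and Rdh5, a retinol dehydrogenase, at 1937 to 3094 CPM and 839 to 1621 CPM (-1.10, SE 0.31, adjusted p = 0.110). The list shares 9 of its genes with the RPE markers, so it is not a second measurement of them, and scaled to those markers its median was -0.06. The number lower at an unadjusted p under 0.05 was 3 without LC3b-/- F1 (5.74% of all genes) or without LC3b-/- F3 (7.2%), 4 without WT M1 (6.53%) and 5 without WT F3 (7.84%). It was 12 without LC3b-/- M (13.1%), with 2 called, where 485 of 17553 genes were called. With sex as a covariate it was also 12 (13.9%), with 3 called, where 197 of 16990 genes were called.

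**Figure D5:**
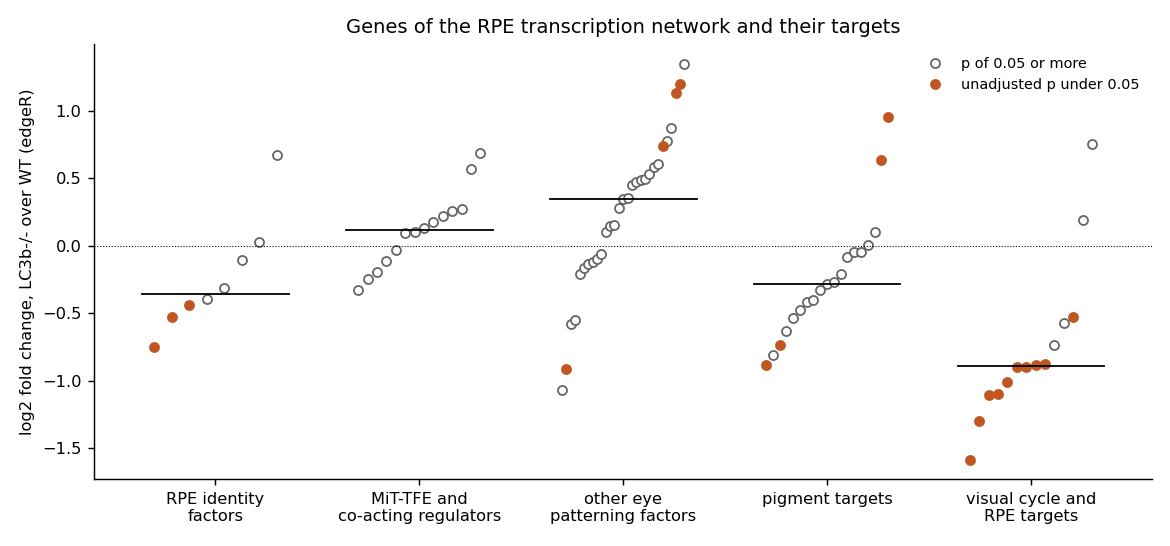
Log2 fold change of LC3b-/- over WT from edgeR for each tested gene of the 8 factors, 14 MiT-TFE and co-acting regulators, 29 other eye patterning factors, 19 pigment targets and 14 visual cycle and RPE targets, sorted within each list. Filled points have an unadjusted p under 0.05 and bars are list medians. The visual cycle and RPE targets lie lowest, with a median of -0.89 and 10 of 14 points filled.

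The promoters of these genes show where the factors' short motifs occur. The 250 bases before the start of each gene's canonical transcript (GENCODE vM39, GRCm39) were searched on both strands for 5 motifs, none of which contains another. The MITF E-box was searched as CATGTG. The palindromic E-box was searched as CACGTG. For OTX2 the letters were TAATCC. For SOX9 they were ACAATG. For homeodomains in general they were TAATTA. Of the 9 factors, Otx2 and Foxd1 held the MITF E-box (22.2%, against 10.5% of 21757 protein coding genes), Otx2 held the homeodomain motif (11.1% against 5.16%) and Tfec held the SOX9 motif (11.1% against 9.41%). None held the palindromic E-box or the OTX2 motif, which occurred in 6.26% and 7.0% of all. Among the 14 visual cycle and RPE targets, 4 held the OTX2 motif (28.6%), 3 the MITF E-box (21.4%) and 2 the SOX9 motif (14.3%). Among the 19 pigment targets, 6 held the MITF E-box (31.6%), and the palindromic E-box, the OTX2 motif and the SOX9 motif were each held by 3 (15.8%). These are matches of letters in a short window and do not show binding.

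The following promoters are shown because Otx2 was one of the 2 factors whose groups did not overlap, because Rpe65, Rgr and Rdh5 are the visual cycle genes with an E-box match, and because Tyr is the textbook MITF target. They were chosen after their matches were known. Each is written 5′ to 3′ on the strand of the gene, ending at the base before the transcript start, with the matched motifs in capitals.
Otx2, chr14:48905008-48905257, minus strand: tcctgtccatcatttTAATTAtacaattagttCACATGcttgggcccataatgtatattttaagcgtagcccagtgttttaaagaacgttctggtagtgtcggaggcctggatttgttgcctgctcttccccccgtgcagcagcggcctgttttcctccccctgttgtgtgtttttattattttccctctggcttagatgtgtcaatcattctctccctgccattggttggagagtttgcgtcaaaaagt
Rpe65, chr3:159304552-159304801, plus strand: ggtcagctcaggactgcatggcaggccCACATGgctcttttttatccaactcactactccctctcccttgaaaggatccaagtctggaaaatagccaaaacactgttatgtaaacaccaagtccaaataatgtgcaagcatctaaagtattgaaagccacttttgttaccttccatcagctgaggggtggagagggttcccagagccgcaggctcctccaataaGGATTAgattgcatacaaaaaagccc
Rgr, chr14:36770922-36771171, minus strand: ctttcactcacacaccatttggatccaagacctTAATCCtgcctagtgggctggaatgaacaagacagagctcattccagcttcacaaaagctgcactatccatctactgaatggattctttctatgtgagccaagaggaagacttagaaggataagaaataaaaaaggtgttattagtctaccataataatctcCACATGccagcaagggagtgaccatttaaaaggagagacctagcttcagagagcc
Rdh5, chr10:128755438-128755687, minus strand: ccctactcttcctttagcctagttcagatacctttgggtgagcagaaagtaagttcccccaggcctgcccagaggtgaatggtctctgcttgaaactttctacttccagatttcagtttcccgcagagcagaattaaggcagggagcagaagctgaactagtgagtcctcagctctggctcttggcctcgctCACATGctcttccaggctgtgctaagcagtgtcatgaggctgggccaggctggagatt
Tyr, chr7:87142721-87142970, minus strand: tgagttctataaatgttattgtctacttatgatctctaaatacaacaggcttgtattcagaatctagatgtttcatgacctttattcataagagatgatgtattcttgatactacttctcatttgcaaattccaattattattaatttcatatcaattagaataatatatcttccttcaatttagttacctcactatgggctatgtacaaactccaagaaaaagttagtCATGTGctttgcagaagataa
In Otx2 the homeodomain match begins 235 bases and the E-box 218 bases before the start. Rpe65, at -0.89 (SE 0.37, adjusted p = 0.203), has its OTX2 match 26 bases before the start and an E-box 223 bases before it. Rgr, an opsin of the RPE at 9283 to 15172 CPM in WT and 3501 to 8212 CPM in LC3b-/- (-1.10, SE 0.39, adjusted p = 0.155), has an E-box 55 and an OTX2 match 217 bases before the start. Rdh5 has an E-box 58 bases before its start. Tyr, whose difference was within the spread between mice, has an E-box 21 bases before its start, the nearest of the 5.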

How the data were processed

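RPE sheets were released with hyaluronidase and trypsin from eyecups, with 1 mouse per library. Per the labels, libraries were made with a stranded mRNA kit and read as 100 bp single reads. The authors estimated counts with Salmon 1.9.0 against GENCODE vM26 (GRCm39) and summed them to genes with tximeta 1.16.1. The deposited values are the authors' counts per gene, as whole numbers not scaled for depth, and 0 columns were left unused. Of 52740 identifiers, 51721 matched GENCODE vM39, which gave symbols, coordinates and promoters.

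Here the counts were filtered with filterByExpr and TMM scaled (factors 0.931 to 1.12), and tested with edgeR 4.0.16 in R 4.3.3 (biological coefficient of variation 0.398). Log2 CPM used a prior count of 2. DESeq2 1.42.0, voom of limma 3.58.1, other scalings, filters, a sex covariate, females alone and each library left out were alternatives. Exact permutation tests are two-sided over 35 labelings. The code was tested on simulated data. No library is a copy of another, since the chi-square of pairs within a group was 66.4 to 219 times its degrees of freedom. Intervals of fold changes are at 95%.

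The factors and all gene lists were chosen with earlier results of these data known. Genes named are the 9 factors, Map1lc3b, per regulator or target list the genes called and the 3 with the smallest p, the 3 genes most like each factor, and per marker list the sum and the 2 most abundant genes. Others (Tfeb, Tfe3, Best1, Gpr143, Sox10, Tyr, Rpe65, Rgr and the overlapping transcripts) were added after their values were seen. A few genes that this rule selects are not reported here.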

Additional observations from a re-analysis of the deposited data

Results flagged for a closer look

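Pax6 and Foxd1 moved in opposite directions in the 2 sexes. For Pax6, both LC3b-/- females lay above the 3 WT females (0.92 on the log2 CPM scale) and the LC3b-/- male lay below the WT male (-0.25). The interaction of sex and genotype in edgeR was -1.18 (SE 0.54, unadjusted p = 0.0728, adjusted p = 0.998). For Foxd1, both LC3b-/- females lay below the 3 WT females (-0.45) and the LC3b-/- male lay above the WT male (1.23), with an interaction of 1.73 (SE 0.58, unadjusted p = 0.0256, adjusted p = 0.998). Neither interaction held after adjustment over all genes, and each rests on 1 male per genotype.

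The summed level of the uveal melanocyte markers in WT F1, 1106 CPM, stood apart from the other 3 WT libraries (337 to 437 CPM). It was the 1 value set apart among 38 that were tested in this way (factors, their overlapping transcripts and list sums in the 4 WT libraries), where chance sets apart about 5% of groups. Mitf, which melanocytes also express, was at 57.3 CPM in WT F1, within the range of the other WT libraries.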

How the results depend on the processing

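Apart from the RPE marker scalings, the fold changes of the 8 factors reversed in 11 of 128 fits, all of Vax2 or Foxd1, and Otx2 became called in 1. The RPE marker scalings raise the fold changes of all genes (median 0.92 and 0.55), so a sign that turns there is no test of a factor. The values that turned under RPE marker sum scaling were Mitf 0.56, Otx2 0.11, Sox9 0.51, Lhx2 0.41, Six3 0.47 and Vax2 0.80, and under the geometric mean of the RPE markers, an alternative added after the data were seen, Mitf 0.19, Sox9 0.14, Lhx2 0.026, Six3 0.092 and Vax2 0.39. Vax2 reversed to 0.019 with voom and 0.0080 with library size alone, and ranged from -1.22 to 0.32 over the left-out libraries. Foxd1 reversed to -0.11 with voom and -0.48 in females alone, and ranged from -0.31 to 0.21 over the left-out libraries. The cause was not tested. The number of factors called was 1 with DESeq2 (Otx2) and 1 with RPE marker sum scaling (Pax6), against 0 otherwise. The regulator and target genes stood in lists of 14, 32, 19 and 14. Of them, 11 were called with DESeq2, where 9.85% of the genes it adjusted were. With RPE marker sum scaling 16 were called, where 33.3% of all genes were. With sex as a covariate 3 were called, where 197 of 16990 genes were. Over the left-out libraries 0 to 3 were called, against 0 in the main fit. The factors without overlap, 2 in all libraries, numbered 4 with RPE marker sum scaling, 7 in females alone and 0 with the geometric mean, and 2 to 6 over the left-out libraries. Calls over all genes numbered 40, but 1831 with DESeq2, 5664 and 469 with the 2 RPE marker scalings, 124 with voom, 78 without a filter, 197 with the sex covariate, 96 in females alone and 11 to 485 over the left-out libraries.

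The mouse names F1 and F3 occur in both genotypes. Deviations from the group means correlated at 0.15 for F1 and 0.24 for F3, within the range of pairs that share no name (-0.50 to 0.53). With 2 pairs this gives names only. With that name as a replicate block in the 4 libraries, 0 of 17378 genes and 0 factors were called, and Foxd1 reversed to -0.32. Tfec could not be fitted under settings that keep the filter on low counts. Depth limits Tfec (38 counts in all). Vax2 (41 to 460 counts per library) and Foxd1 (73 to 226) had coefficients of variation of 47.6% and 33.6% in WT. In LC3b-/- these were 92.5% and 35.9%. The part of depth in the spread of Vax2 and Foxd1 was not tested.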

Other observations

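Other marker lists were summed in the same libraries. Endothelium markers, led by Ptprb and Plvap, summed to 262 to 938 CPM in WT and 1068 to 1178 CPM in LC3b-/-, without overlap. The groups overlapped for macrophage and microglia markers (609 to 817 against 699 to 1431 CPM, led by Lyz2 and Csf1r), for fibroblast markers (831 to 1943 against 1402 to 2221 CPM, led by Fbln1 and Dcn) and for bipolar cell markers (67.5 to 125 against 79.3 to 144 CPM). They also overlapped for uveal melanocyte markers (337 to 1106 against 294 to 359 CPM). Among the Müller glia markers Glul and Car14 were the most abundant. Of the 11 of this list that were tested, 6 had fold changes above 0 (median log2 fold change 0.19), and at an unadjusted p under 0.05 Hes1 and Vim were higher and Car14 was lower.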
